A study of Mus musculus with 6 samples.

Results

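The 39 protein-coding HOX genes of the human genome were examined in 22Rv1 cells, an established human prostate cancer line, before and after selection for resistance to the antibody-drug conjugate BL-B01D1. Members were the rows of the deposited count table with the biotype protein_coding and a symbol made of HOX, a cluster letter from A to D and a number, which gave 39 of 58735 genes in the table, 11 in HOXA, 10 in HOXB, 9 in HOXC and 9 in HOXD. The study compared 3 libraries of parental 22Rv1 given vehicle with 3 libraries of the 22Rv1 BL-B01D1_R subline, which the authors derived by raising the drug concentration stepwise over months. BL-B01D1 binds EGFR and HER3 and carries the cytotoxic payload Ed-04. The resistant group was 1 subline from 1 selection, the label for its treatment is BL-B01D1, and whether drug was present at harvest is not given in the sources used here. The organism field of the samples reads Mus musculus, but 22Rv1 is a human line and all HOX rows carried human Ensembl identifiers, so the table was read as human (hg38).

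HOX genes encode transcription factors that bind DNA through a homeodomain and give cells their address along the body axis. They lie in 4 clusters, and genes at matching places in different clusters descend from 1 ancestor and form 13 paralog groups. Groups 1 to 3 are called anterior here, 4 to 8 central and 9 to 13 posterior, after the level of the embryo at which they come on. Posterior members pattern the hindgut and the urogenital tract, and HOXB13 stays on in adult prostate epithelium. HOX proteins gain specificity from partners of the TALE class (PBX, MEIS and PKNOX), retinoic acid switches the clusters on from their anterior end, and Polycomb and trithorax complexes hold them silent or active.

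Counts on genes totaled 13821639 to 17251491 per library, and HOX genes held 10343 to 13441 of them. Levels are given as CPM, counts scaled to a common library total (1000000) after TMM normalization, and, where genes are compared with each other, as FPKM, which is CPM per kilobase of the listed gene length. At these depths 3 counts, the most that a count of 0 allows, were 0.174 to 0.216 CPM, a floor that covers counting error only. Replicates of a group differed by more than sampling noise (chi-square per degree of freedom 1.77 to 2.47) but by much less than libraries of different groups (20.7 to 24.2). Nothing in the labels says that they came from separate cultures, so p-values measure the spread between these libraries, which may be technical. All 10 markers of prostate luminal cancer cells, HOXB13 among them, were expressed in both lines. At an FDR of 0.05, 5 rose and 4 fell (50% higher and 40% lower beside 17.1% and 18.4% of all genes tested). Summed markers of basal epithelium, leukocytes and endothelium stayed under 1 CPM in every library. Of the 5 fibroblast markers, 4 were tested. LUM and COL1A1 fell and the other 2 did not pass (50% lower beside 18.4% of all genes tested), with COL1A2 at 0 to 2 counts. The summed level of the 5 was 111 to 115 CPM in parental and 39.6 to 44.3 CPM in resistant libraries. Of the 4 neuroendocrine markers, 2 were tested. CHGA fell and the other 1 did not pass (50% lower beside 18.4% of all genes tested), with INSM1 at 0 to 1 counts. The sum of the 4 was 135 to 149 CPM in parental and 109.9 to 118 CPM in resistant libraries. The part of these cells or genes in the HOX values was not tested. In bulk RNA, fewer cells expressing a gene and less RNA per cell cannot be told apart.

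Both lines expressed the HOXA, HOXB and HOXC clusters and had almost no HOXD transcripts. Of the 39 genes, 31 had at least 1 count in some library and 8 had none in any, namely HOXB1 and the HOXD genes HOXD1, HOXD3, HOXD4, HOXD8, HOXD10, HOXD11 and HOXD12. HOXB13 stood far above the rest at 126 ± 1.21 FPKM in parental and 90.8 ± 3.25 FPKM in resistant cells (SD, n = 3), 5.53 times the level of the next member over all 6 libraries, and ranked 267 by FPKM among the tested protein-coding genes. HOXA10 and HOXA5 followed, with 14.9 ± 0.427 and 13.9 ± 1.46 FPKM in parental cells. HOXA13, HOXC12, HOXC10, HOXB6 and HOXB7 came next, between 6.44 and 8.56 FPKM as means of all libraries, and neighbors in that order lay close to each other. Of the 27 members with enough counts for a test, 3 had a mean over 10 FPKM, 20 lay between 1 and 10, and 4 were under 1. The level did not follow position within a cluster in a single order, since HOXA7 lay at 0.574 FPKM between HOXA6 at 6.02 and HOXA9 at 4.86, and HOXC11 at 0.448 lay between HOXC10 at 7.99 and HOXC12 at 8.48.

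**Figure D1:**
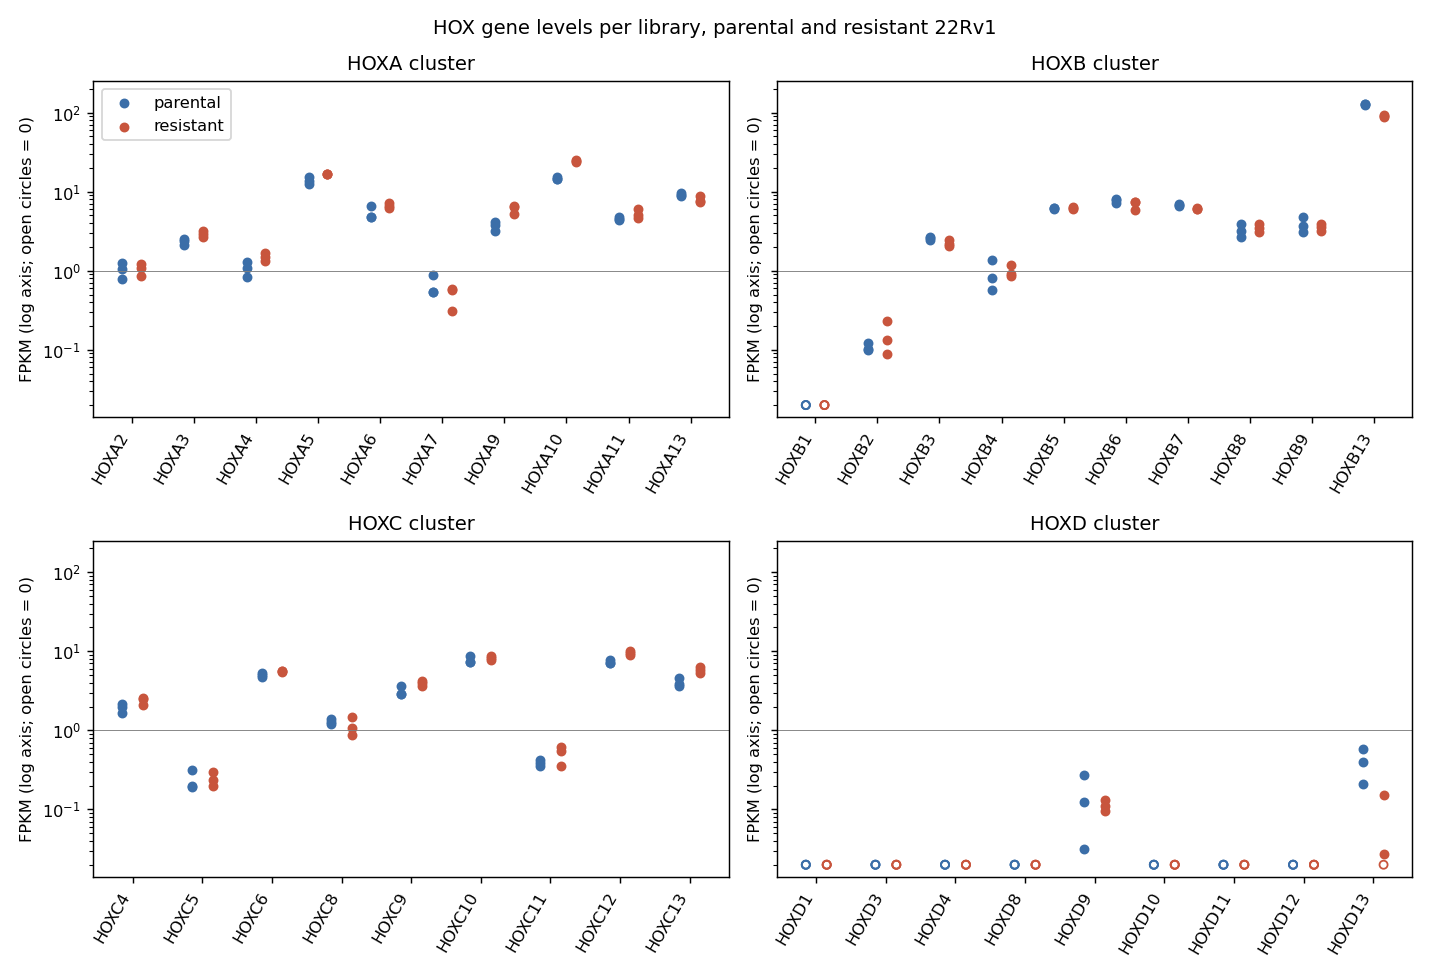
FPKM of 38 HOX genes in each library on a log axis, with 1 panel per cluster, genes ordered by paralog group, filled points for values above 0 and open circles at the bottom for values of 0. HOXB13 is the highest point in both lines, and in the HOXD panel only HOXD9 and HOXD13 have filled points.

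The comparison of resistant with parental cells asked which HOX genes differed between the lines. Among the 27 tested members, 7 rose, 3 fell and 17 did not pass an FDR of 0.05 in edgeR's quasi-likelihood test, adjusted over all 17142 genes tested. Among those that rose were HOXA3, HOXA5, HOXA9, HOXA10, HOXC12 and HOXC13, and those that fell were HOXB13, HOXA13 and HOXB3. That is 25.9% higher and 11.1% lower, beside a background of 17.1% and 18.4% over all genes tested. By the stricter rule of the study's methods, which also asks for an absolute log2 fold change greater than 1, edgeR called 0 members, beside 2.53% of all genes upward and 2.84% downward. No tested member had a log2 fold change of that size at any p, so the number at an unadjusted p under 0.05 was also 0, as were the numbers from limma-voom and DESeq2. With 1 library left out, the number that fell dropped to 1, HOXB13, without resistant library 3, and the stricter rule called 1 member without parental library 3 or resistant library 3. Tested members had a median log2 fold change of 0.16, with 19 of 27 above 0, whereas the median over all genes tested was 0.00379. All resistant libraries lay above all parental ones in 10 members and under them in 4, against 22.1% and 22.8% of all genes tested. The 17 members that did not pass had log2 fold changes between −0.43 and 0.46.

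**Figure D2:**
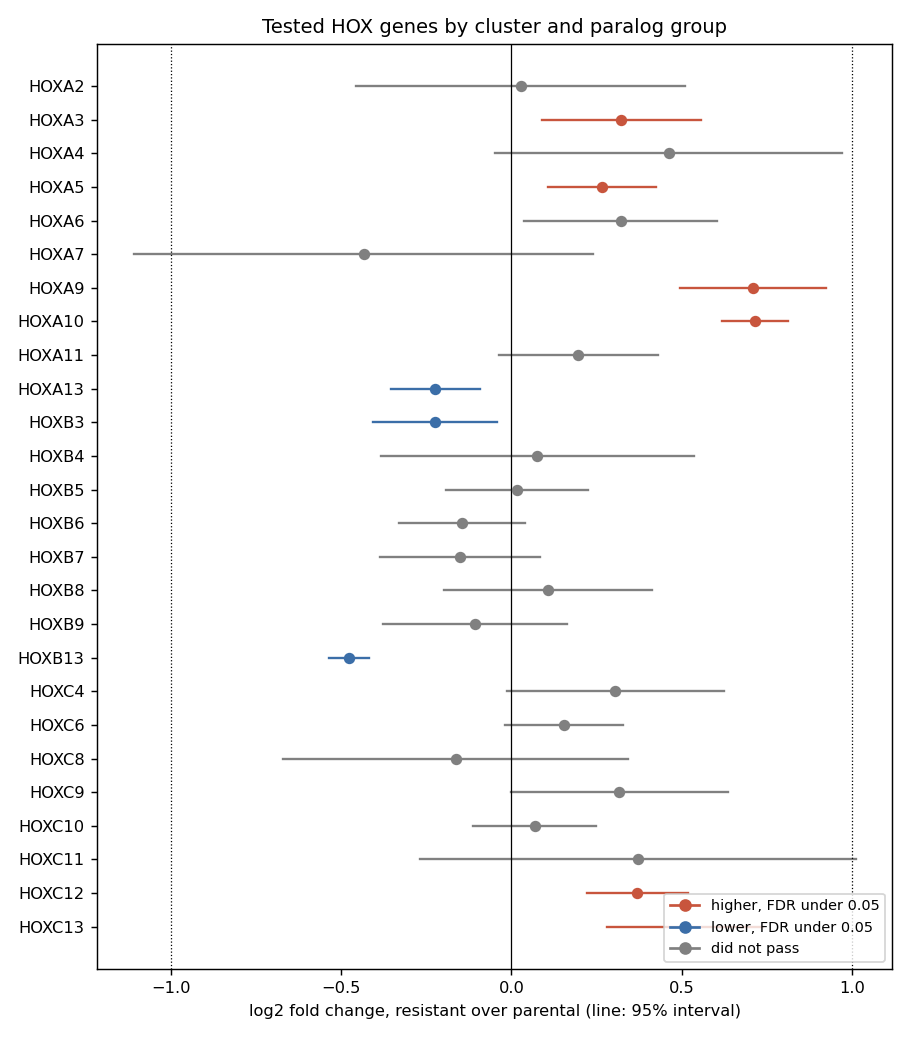
Log2 fold change of 26 tested HOX genes, resistant over parental, with 95% intervals from edgeR, ordered by cluster and paralog group, with red for genes that rose, blue for genes that fell and gray for genes that did not pass. HOXB13 has the narrowest interval (−0.54 to −0.42), HOXA7 has a wide one (−1.11 to 0.24), and no gene that passed has its whole interval outside the dotted lines at −1 and 1.

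The HOXB cluster (chromosome 17 of hg38, 48528526 to 48729178, reverse strand) summed to 521 ± 4.000 CPM in parental libraries and 392 ± 14.3 CPM in resistant libraries (SD, n = 3), with most of the difference in HOXB13. HOXB13 (ENSG00000159184, chromosome 17, 48724763 to 48729178, reverse strand), the prostate member of the family, measured 439, 442 and 434 CPM in parental libraries 1, 2 and 3. In resistant libraries 1, 2 and 3 it measured 314, 304 and 326 CPM. The groups were far apart, with a parental mean of 439 ± 4.18 CPM and a resistant mean of 315 ± 11.3 CPM (SD, n = 3), and HOXB13 fell (log2 fold change −0.48, SE 0.0292, edgeR FDR 2.29e-17). Over the 6 leave-one-out fits its log2 fold change ranged from −0.50 to −0.45. Because HOXB13 is so abundant, it held 51.3% ± 0.199 of the FPKM summed over all HOX genes in parental cells and 39.2% ± 0.913 in resistant cells (SD, n = 3), a share that does not depend on library scaling but also moves with the other members.

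Of the 8 tested HOXB genes, 2 fell, HOXB13 and HOXB3, and the other 6 did not pass (25% lower beside 18.4% of all genes tested). HOXB3, an anterior member known from the hindbrain and blood progenitors, fell from 19.96, 19.4 and 18.4 CPM in the parental libraries to 18.3, 15.2 and 16.02 CPM in the resistant libraries (log2 fold change −0.22, SE 0.0907, edgeR FDR 0.0497). The groups did not overlap, but the call lay at the threshold and was lost in 11 of 15 alternatives, among them the fits without parental library 1 (−0.20, FDR 0.141), parental library 2 (−0.22, FDR 0.103), resistant library 2 (−0.17, FDR 0.216) and resistant library 3 (−0.20, FDR 0.139) and those with limma-voom (−0.23, FDR 0.0510) and DESeq2 (−0.22, FDR 0.136). HOXB6, a central member, was at 20.4, 18.8 and 20.8 CPM in parental and 19.3, 15.4 and 19.4 CPM in resistant libraries and did not pass (log2 fold change −0.14, 95% interval −0.33 to 0.04, edgeR FDR 0.234). Its groups overlapped. HOXB7, which has been tied to cell growth in several cancers, was at 10.1, 10.7 and 10.2 CPM in parental and 9.17, 9.31 and 9.49 CPM in resistant libraries, likewise without passing, although the groups did not overlap (log2 fold change −0.15, 95% interval −0.39 to 0.09, edgeR FDR 0.342). HOXB4, HOXB5, HOXB8 and HOXB9 had log2 fold changes of 0.08, 0.02, 0.11 and −0.11, with 95% intervals that all include 0, and HOXB2, with 3 to 9 counts in each library, was not tested. Over the cluster without HOXB13, the summed level was 82.4 ± 2.04 CPM in parental libraries and 76.8 ± 4.55 CPM in resistant libraries.

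The HOXA cluster (chromosome 7, 27092993 to 27200106, reverse strand) had 5 of 11 tested members that rose and 1 that fell (45.5% higher and 9.09% lower beside 17.1% and 18.4% of all genes tested), with 9 of 11 log2 fold changes above 0 and a median of 0.32. HOXA10 (ENSG00000253293, chromosome 7, 27170591 to 27180261, reverse strand), a posterior member that patterns the reproductive tract, measured 54.2, 54.2 and 56.98 CPM in the parental libraries and 91.9, 87.9 and 91.6 CPM in the resistant libraries. Every resistant library lay well above every parental one, and HOXA10 rose from 55.2 ± 1.58 to 90.5 ± 2.25 CPM (SD, n = 3; log2 fold change 0.72, SE 0.0477, edgeR FDR 3.80e-16). Its neighbor HOXA9 (ENSG00000078399, chromosome 7, 27162435 to 27175180, reverse strand), best known for its part in myeloid leukemia together with MEIS1, measured 11.3, 12.3 and 9.73 CPM in parental and 19.5, 19.7 and 15.7 CPM in resistant libraries. Here too the groups stood apart, and HOXA9 rose by nearly the same amount (log2 fold change 0.71, SE 0.107, edgeR FDR 7.24e-07). Over the leave-one-out fits, estimates ran from 0.70 to 0.74 for HOXA10 and from 0.63 to 0.81 for HOXA9. The annotated spans of both genes share 4590 bases on the same strand, so how the authors' counting split reads between them is uncertain.

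HOXA5, a central member needed for lung development, had the third highest FPKM of the family. It measured 21.3, 26.3 and 23.4 CPM in parental and 28.2, 28.8 and 28.5 CPM in resistant libraries, which did not overlap, and rose modestly (log2 fold change 0.27, SE 0.0784, edgeR FDR 0.00659). The call was lost without parental library 1, at a log2 fold change of 0.19 (FDR 0.0739). HOXA3, which patterns the pharyngeal arches, went from 8.99, 10.8 and 10.1 CPM to 11.3, 13.7 and 12.4 CPM (log2 fold change 0.32, SE 0.116, edgeR FDR 0.0260) and lost its call without parental library 1 (0.25, FDR 0.133) or resistant library 2 (0.25, FDR 0.139), with DESeq2 (0.32, FDR 0.0780) and with limma on log2(FPKM + 1) (0.23, FDR 0.0724).

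HOXA13, the last gene of the cluster and one that patterns the hindgut and the urogenital sinus, moved the other way. It measured 46.5, 44.9 and 49.2 CPM in parental and 38.4, 44.4 and 37.7 CPM in resistant libraries. Resistant library 2 lay just under parental library 2, the other resistant libraries lay well under it, and HOXA13 fell (log2 fold change −0.22, SE 0.0645, edgeR FDR 0.00540). The call was lost without resistant library 3 (−0.18, FDR 0.0504) and with limma on log2(FPKM + 1) (−0.20, FDR 0.0564). HOXA11, between HOXA10 and HOXA13, did not pass (log2 fold change 0.20, 95% interval −0.04 to 0.43, edgeR FDR 0.192), and neither did HOXA2, HOXA4, HOXA6 or HOXA7, at 0.03, 0.46, 0.32 and −0.43. Summed over the cluster, HOXA genes took 171 ± 3.41 CPM in parental libraries and 219 ± 5.24 CPM in resistant libraries (SD, n = 3).

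The HOXC cluster (chromosome 12, 53938765 to 54056030, forward strand) had 2 of 8 tested members that rose, both at its posterior end, and 6 that did not pass (25% higher beside 17.1% of all genes tested). HOXC13 (ENSG00000123364, chromosome 12, 53938765 to 53946544, forward strand), known from hair and nail, measured 9.46, 11.1 and 8.93 CPM in the parental libraries and 12.8, 13.9 and 15.3 CPM in the resistant libraries. All resistant libraries were higher, and HOXC13 rose (log2 fold change 0.51, SE 0.113, edgeR FDR 3.44e-04). HOXC12 (ENSG00000123407, chromosome 12, 53954834 to 53958956, forward strand), the next gene of the cluster, measured 23.96, 26.02 and 23.99 CPM in parental and 31.5, 30.3 and 33.9 CPM in resistant libraries, again without overlap, and also rose (log2 fold change 0.37, SE 0.0739, edgeR FDR 8.57e-05). Both kept their call in every leave-one-out fit, at 0.44 to 0.61 for HOXC13 and 0.33 to 0.41 for HOXC12. HOXC10, one of the 8 members with the highest FPKM, was at 20.01, 17.1 and 17.3 CPM in parental and 19.3, 20.2 and 17.8 CPM in resistant libraries and did not pass, with overlapping groups (log2 fold change 0.07, 95% interval −0.11 to 0.25, edgeR FDR 0.598). HOXC6, named after its value was seen, whose transcript is used as a urine marker of prostate cancer, was at 17.8 ± 1.04 CPM in parental and 19.8 ± 0.283 CPM in resistant cells and did not pass either, although its groups did not overlap (log2 fold change 0.16, 95% interval −0.02 to 0.33, edgeR FDR 0.163). HOXC4, HOXC8, HOXC9 and HOXC11 had log2 fold changes of 0.31, −0.16, 0.32 and 0.37, none of which passed, and HOXC5, with 6 to 8 counts in each library, was not tested. The cluster summed to 85.1 ± 3.20 CPM in parental libraries and 102 ± 1.04 CPM in resistant libraries.

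**Figure D3:**
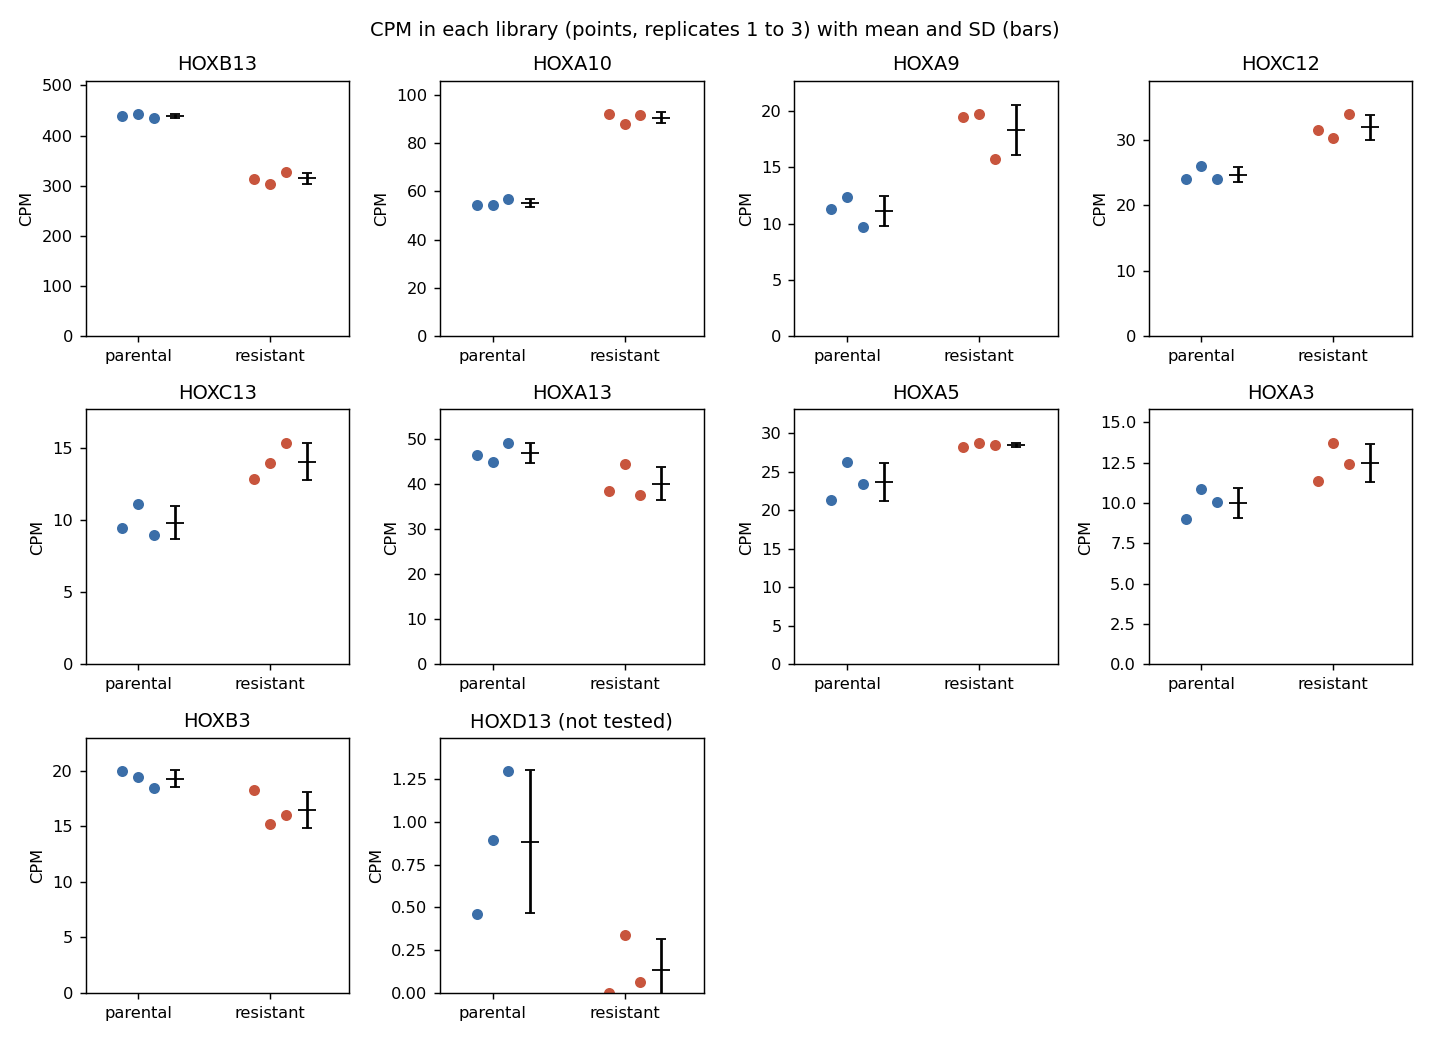
CPM of 9 HOX genes that passed and of HOXD13, which was not tested, in each library, with points for replicates 1 to 3, a short line for the mean and a bar for the SD, and every axis starting at 0. HOXB13, HOXA10, HOXA9, HOXC12 and HOXC13 show wide gaps between the groups, whereas HOXA13, HOXA3 and HOXB3 have neighboring points close to each other across groups.

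The HOXD cluster (chromosome 2, 176092891 to 176190907, forward strand) was close to silent in both lines. Of its 9 genes, 7 had 0 counts in all 6 libraries, which at these depths allows up to 0.174 to 0.216 CPM per library. HOXD9 had 4, 1 and 7 counts in parental and 3, 3 and 4 counts in resistant libraries. HOXD13 (ENSG00000128714, chromosome 2, 176092891 to 176095938, forward strand), which patterns the digits and the urogenital tract, had 8, 15 and 18 counts in parental libraries 1 to 3 but 0, 5 and 1 in resistant libraries 1 to 3. These sum to 41 counts in parental and 6 in resistant cells, and the groups did not overlap. The filter on low counts left HOXD13 out of the test. Without that filter its log2 fold change was −2.70 (SE 0.639, edgeR FDR 2.79e-04), the only member to meet the stricter rule in that fit. FDRs of the unfiltered fit are not comparable with the others given here. In edgeR without and with the filter they were 9.67e-44 and 3.80e-16 for HOXA10. For the noncoding RNA HOXA-AS2 they were 0.0219 and 0.0169. HOXB2, HOXC5 and HOXD9 did not pass in the unfiltered fit, with edgeR FDR from 0.697 to 0.967.

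By position, posterior genes carried most HOX RNA, 632 ± 1.77 of 778 CPM in parental cells and 559 ± 7.23 of 713 CPM in resistant cells, largely HOXB13. Of the tested members, 2 of 4 anterior genes rose and 1 fell, 1 of 12 central genes rose and the other 11 did not pass, and 4 of 11 posterior genes rose and 2 fell, beside 17.1% higher and 18.4% lower over all genes tested. Paralogs moved in both directions in groups 3 and 13. In group 13, HOXA13 and HOXB13 fell and HOXC13 rose. In group 3, HOXA3 rose and HOXB3 fell, and in group 9 HOXA9 rose while HOXB9 and HOXC9 did not pass (−0.11 and 0.32). Across the 27 tested genes, Spearman's rho between log2 fold change and paralog group was −0.0282, a description over genes that share the same 6 libraries. Summed over all members but HOXB13, HOX RNA was 339.9 ± 2.24 CPM in parental libraries and 398 ± 2.27 CPM in resistant libraries (SD, n = 3), so that the total of the family was lower in resistant cells with HOXB13 and higher without it. Differences between clusters or positions were not tested.

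The clusters also hold noncoding RNAs and a few other coding genes. Of 71 noncoding entries within the 4 clusters and 50 kb on each side, 17 were tested, 2 rose and the other 15 did not pass (11.8% higher beside 17.1% of all genes tested). That background is mostly protein-coding (13576 of the 17142 genes tested), so the 2 shares are not of like genes. HOXA10-AS, an antisense RNA that lies across the HOXA9 and HOXA10 spans, had 4, 14 and 6 counts in parental and 24, 19 and 37 counts in resistant libraries. The groups did not overlap, and it rose (log2 fold change 1.73, SE 0.405, edgeR FDR 6.70e-04). Its parental counts alone would not have passed the filter on low counts. HOXA10-AS also stayed out of the fit that asked for at least 10 counts in every library. Over the leave-one-out fits the log2 fold change ranged from 1.36 to 2.35, with a largest edgeR FDR of 0.0133. The estimate for HOXA10-AS was highest without parental library 2 (FDR 2.36e-04). The whole span of HOXA10-AS, 3297 bases, lies within that of HOXA9, and 1325 of these bases also lie within that of HOXA10. Since the sources do not state that counting used strand, its reads cannot be told apart from theirs. HOXA-AS2, antisense to the anterior HOXA genes, also rose (log2 fold change 0.50, SE 0.168, edgeR FDR 0.0169) and lost its call without resistant library 2 (0.42, FDR 0.0916) or 3 (0.42, FDR 0.0877), with DESeq2 (0.50, FDR 0.0542) and with limma on log2(FPKM + 1) (0.25, FDR 0.0636). HOXA-AS2, HOTAIR, HOTTIP, PRAC1 and PRAC2 were named after their values were seen. HOTAIR, the antisense RNA of the posterior HOXC genes, and HOTTIP, beside HOXA13, were both low and did not pass, with log2 fold changes of 0.24 and −0.04. PRAC1 and PRAC2, small genes of prostate and hindgut that lie between HOXB9 and HOXB13, both passed and rose, while HOXB13 fell (log2 fold change 0.32, SE 0.1004, edgeR FDR 0.0107 for PRAC1 and log2 fold change 0.39, SE 0.117, edgeR FDR 0.00783 for PRAC2). They were 2 of the 2 tested coding genes inside the clusters that are not HOX genes (100% higher beside 17.1% of all genes tested). The groups overlapped for PRAC1, with parental library 2 at 15.8 CPM and resistant library 1 at 15.6 CPM, but not for PRAC2. PRAC1 lost its call without resistant library 2 (0.22, FDR 0.133) and with limma on log2(FPKM + 1) (0.31, FDR 0.0543), and PRAC2 without parental library 3 (0.32, FDR 0.0541). The annotated 3′ ends of PRAC2 and HOXB13 face each other with 4 bases between them. Spans of 19 of the 39 HOX genes overlapped an opposite-strand gene with at least 20 counts in all, and spans of 22 overlapped another HOX gene, so the counts of these genes are uncertain where exons coincide.

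Coding genes outside the clusters were counted as well, 3 on each side of each cluster. Of the 24, 22 were tested, 3 rose and 3 fell (13.6% higher and 13.6% lower beside 17.1% and 18.4% of all genes tested), with log2 fold changes between −0.36 and 0.36 and a median of −0.02. HNRNPA1, beside HOXC and the gene with the highest FPKM of this set, did not pass (log2 fold change 0.05, edgeR FDR 0.0695), and CBX3, beside HOXA, fell slightly (log2 fold change −0.14, SE 0.0311, edgeR FDR 4.31e-04), a call lost with limma on log2(FPKM + 1) (−0.13, FDR 0.0532). EVX1, the homeobox gene at the posterior side of HOXA13, stood at 9.82 ± 1.28 CPM in parental and 9.64 ± 0.610 CPM in resistant cells (log2 fold change −0.02, edgeR FDR 0.920). It was the only tested gene among the 8 ParaHox and EVX genes, of which 5 had no counts.

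**Figure D4:**
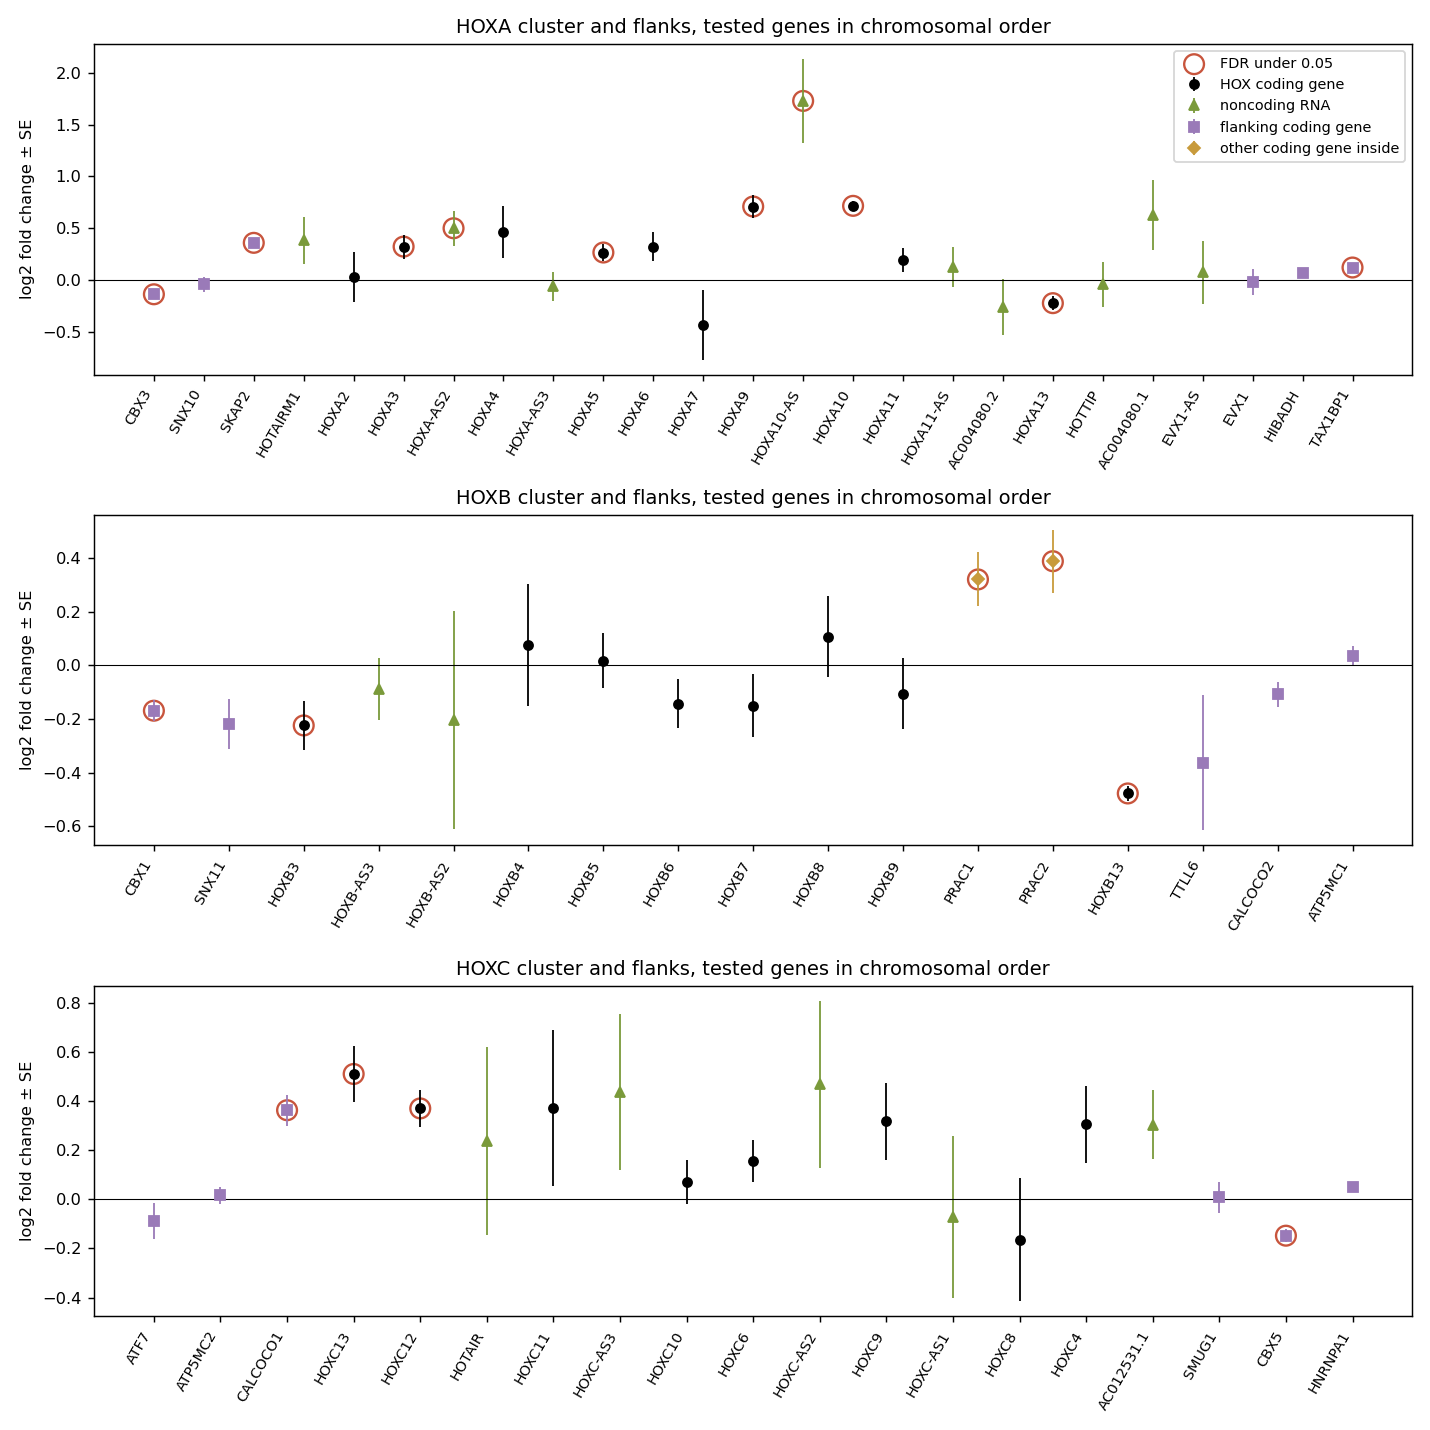
Log2 fold change, resistant over parental, with SE bars, of tested genes in the HOXA, HOXB and HOXC clusters and their flanks in chromosomal order, with circles for HOX genes, triangles for noncoding RNAs, squares for flanking coding genes, diamonds for other coding genes inside, and red rings for an FDR under 0.05. HOXA9, HOXA10-AS and HOXA10 stand together above the other posterior HOXA genes, and HOXB13 lies under PRAC1 and PRAC2 beside it.

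Among partners and regulators of HOX genes, the stricter rule called 1 of 10 tested retinoic acid pathway genes upward and 1 downward. The background was 2.53% and 2.84% of all genes tested. It called 0 of the 9 tested TALE cofactors and 0 of the 25 Polycomb and trithorax genes. Of 11 TALE cofactors, 9 were tested, 2 rose and 3 fell (22.2% higher and 33.3% lower beside 17.1% and 18.4% of all genes tested), and all log2 fold changes lay between −0.57 and 0.38. PBX2, the cofactor with the highest FPKM, rose slightly (log2 fold change 0.15, SE 0.0546, edgeR FDR 0.0251), a call lost without parental library 1 (0.13, FDR 0.0954), resistant library 2 (0.15, FDR 0.0687) or resistant library 3 (0.14, FDR 0.0817) and with DESeq2 (0.15, FDR 0.0642). TGIF2, a TALE repressor, did not pass (log2 fold change −0.17, edgeR FDR 0.0898) unless parental library 1 was left out (−0.25, FDR 0.0134). MEIS1, named after its value was seen, fell from 5.28, 6.31 and 4.47 CPM in parental to 3.14, 3.26 and 4.44 CPM in resistant libraries (log2 fold change −0.57, SE 0.186, edgeR FDR 0.0135), a call lost without parental library 2 (−0.44, FDR 0.112), resistant library 1 (−0.47, FDR 0.0835) or resistant library 2 (−0.51, FDR 0.0650), with DESeq2 (−0.57, FDR 0.0506) and with limma on log2(FPKM + 1) (−0.16, FDR 0.101). Of 18 genes of the retinoic acid pathway, 10 were tested, 2 rose and 3 fell (20% higher and 30% lower beside 17.1% and 18.4% of all genes tested). ALDH1A1, an enzyme that makes retinoic acid, rose from 0.696, 0.595 and 1.51 CPM to 5.31, 2.99 and 4.19 CPM (log2 fold change 2.20, SE 0.292, edgeR FDR 5.29e-08). CRABP2, which carries retinoic acid to its nuclear receptors, fell from 24.9, 27.3 and 28.02 CPM to 13.1, 10.5 and 9.37 CPM (log2 fold change −1.28, SE 0.0981, edgeR FDR 3.06e-14). Of 25 Polycomb and trithorax genes, all were tested, 2 rose and 6 fell (8% higher and 24% lower beside 17.1% and 18.4% of all genes tested), and all log2 fold changes lay between −0.68 and 0.25. RING1, an E3 ligase of Polycomb complexes, did not pass (log2 fold change 0.08, edgeR FDR 0.283).

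Homeobox genes outside the HOX clusters included some that met the stricter rule. Of 135 such genes, 68 were tested, 17 rose and 15 fell, which is 25% higher and 22.1% lower beside 17.1% and 18.4% of all genes tested, with a median log2 fold change of −0.06. The stricter rule called 2 upward and 6 downward, beside 2.53% and 2.84% of all genes tested. HMX3 had no more than 3 counts in any parental library and was at least 10.3-fold higher in resistant cells, measured against 3 counts per library. The parental counts of HMX3 alone would not have passed the filter on low counts. LHX1 rose (log2 fold change 1.05, SE 0.363, edgeR FDR 0.0203) but lost its call without parental library 1 (0.90, FDR 0.0787), parental library 3 (0.99, FDR 0.0582) or resistant library 2 (0.84, FDR 0.126) and with DESeq2 (1.07, FDR 0.0645). Those that fell under the stricter rule were PRRX1 (−2.89), a mesenchymal gene, LHX8 (−1.78), MSX1 (−1.73), NKX2-5 (−1.59), HHEX (−1.39) and PAX6 (−1.10), all on the log2 scale and all under 11 CPM in the parental mean. Low counts limit most of these calls. HMX3, LHX1, PRRX1, LHX8, MSX1 and HHEX stayed out of the fit that asked for at least 10 counts in every library.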

How the data were processed

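RNA-Seq was analyzed for 6 libraries of 22Rv1 cells, 3 parental and 3 resistant, grouped by the sample titles. According to the methods and the submitters' processing notes, the authors trimmed reads with fastp, mapped them to hg38 with HISAT2 (2.0.5), counted them per gene with featureCounts (1.5.0-p3) and deposited raw counts, together with gene position, length and biotype. The annotation release, the use of strand and the handling of overlapping genes are not given in the sources used here.

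Genes were kept from the deposited counts by filterByExpr, scaled by TMM and tested with the quasi-likelihood F test of edgeR (4.0.16, R 4.3.3) on the 17142 genes kept, with Benjamini-Hochberg adjustment over all of them. The SE is the log2 fold change divided by the square root of F. FPKM was computed from CPM and the listed lengths. Alternatives were limma-voom and limma on log2(FPKM + 1) (limma 3.58.1), DESeq2 (1.42.0), other scalings and filters, glmTreat, the replicate number as a block, and each library left out in turn. The code was tested on simulated counts.

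The 39 members and all gene lists were chosen with earlier results of these data known. Statistics are given for members with an FDR under 0.05 and for the 8 with the highest mean FPKM. In other lists they are given for genes that met the stricter rule or, where none did, for the 2 with the highest FPKM. Exceptions are the homeobox genes outside the clusters that fell under the stricter rule, given by log2 fold change alone, and HMX3, given by a lower bound. No p-value was computed over a list. Some genes counted in the groups are not reported here by name or value.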

Additional observations from a re-analysis of the deposited data

How the results depend on the processing

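HOXB13, HOXA9, HOXA10, HOXC12 and HOXC13 kept their direction and their FDR under 0.05 in 14 of 15 alternatives each, the exception being glmTreat (threshold 1 on the log2 scale), where 0 HOX genes passed in either direction because none exceeds that value. No named HOX gene changed its direction under any alternative. Of the other named genes, 4 that did not pass changed sign when 1 library was left out, EVX1 (−0.0981 to 0.0796), HOTAIR (−0.0368 to 0.511), HOTTIP (−0.156 to 0.0170) and RING1 (−0.00855 to 0.138). The numbers of HOX genes that rose and fell, 7 and 3, were 5 and 2 with DESeq2, 7 and 2 with limma-voom, and 6 and 1 with limma on log2(FPKM + 1), and ranged from 5 to 7 and from 1 to 3 with 1 library left out. The single gene that fell without resistant library 3 was HOXB13. The number meeting the stricter rule upward, 0, ranged from 0 to 1 with 1 library left out (without parental library 3 or resistant library 3), and downward it was 1 without a filter on low counts (HOXD13) and 0 in every leave-one-out fit. The median log2 fold change of tested members, 0.16, was 0.115 with limma on log2(FPKM + 1), 0.140 with library size alone and 0.109 without a filter, which adds 4 weak members, and ranged from 0.150 to 0.204 with 1 library left out. Apart from the effects of glmTreat and of the filter, the cause of these changes was not tested. Scaling by library size alone moved the median over all genes from 0.00379 to −0.0123. Over single genes and cluster sums, 537 values under alternatives stayed the same. For a gene this means the same direction and side of the threshold. For a cluster sum, which has no test, it means a shift under the SD of its log2 level over the resistant libraries. Among genes, 69 values lost a call, 4 gained one and 8 changed sign, and 3 cluster sums moved by more than that SD. Low counts limit HOXA7, HOXC11 and the HOXD genes.

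Whether the replicate numbers shared by the groups pair the libraries is not given in the labels. Deviations from the group means of same-numbered libraries correlated at −0.0196 to −0.00806. These values show no sign of pairing, but a weak pairing, or one limited to some genes, could be missed. With the replicate number as a block, 7 HOX genes rose and 3 fell, and the median log2 fold change was 0.157.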
